A study of Mus musculus with 12 samples.

Results

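The genes described here code for nuclear-encoded parts of the mitochondrial respiratory chain and ATP synthase. They were chosen by name, as protein-coding genes whose symbols begin with Nduf (complex I), Uqcr (complex III), Cox4 to Cox8 (complex IV) or Atp5 (complex V), together with Sdha, Sdhb, Sdhc and Sdhd (complex II). By this rule, 91 of the 18376 listed genes were members, with 46 in complex I, 4 in complex II, 8 in complex III, 16 in complex IV and 17 in complex V. The name rule also takes in 8 assembly factors of complex I (Ndufaf genes), which help to build the complex without staying in it, and Ndufa4, which carries a complex I name and is found with complex IV. The symbols Cox5b-ps and Ndufb1-ps carry a suffix for pseudogenes, although the table lists both as protein-coding. The annotation also holds the symbols Atp5s, Cox7b2, Cox8b, Cox8c and Ndufa4l2, which the rule would take. These and all 13 subunits encoded by mitochondrial DNA were not analysed here.

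The RNA came from BMDMs, macrophages that were matured in culture from marrow progenitors of adult wild-type C57BL6/J mice in 50 ng/ml M-CSF, a growth factor of the macrophage lineage. No macrophage taken from a tissue was part of the series. All 4 groups received M-CSF, and they were left otherwise untreated (CTRL), or treated for 6 days with 50 ng/ml activin A (Act), with activin A and 250 ng/ml FST288 (Act+FST), or with FST288 alone (FST). Activin A is a cytokine of the TGF-β family, and FST288 is a form of follistatin, which captures activin A before it can reach a receptor. Each group had 3 libraries, and no source used here says whether these came from separate mice, so that p-values measure the spread between libraries, which may be technical.

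Electrons from NADH enter the chain at complex I, and those from succinate enter at complex II, which is also an enzyme of the TCA cycle. Ubiquinone carries them to complex III, cytochrome c carries them on to complex IV, where oxygen is reduced, and the proton gradient built up on the way drives ATP synthase, or complex V. Macrophages are known to alter their use of this chain with their activation state, and inflammatory activation in particular can lower respiration. The study asked whether activin A shapes inflammatory and fibrotic properties of macrophages, and the comparisons below ask whether the transcripts of the chain moved with it.

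Values are normalized counts, namely the gene counts of the authors scaled by 1 factor per library. Library totals lay between 5643708 and 5955400 after this scaling, so the original depth is not visible in them. The 7 macrophage markers summed to between 10525 and 11683 in every library, and 0 of them differed between Act and CTRL. Of the 5 monocyte markers 1 was higher and of the 5 neutrophil markers 2 were lower in Act. The summed monocyte markers ran from 647 to 1139 in CTRL and from 1220 to 1469 in Act, and the summed neutrophil markers from 380 to 598 and from 317 to 454. Stromal markers summed to between 3 and 55 in CTRL and 12 and 200 in Act, and 0 of the 2 tested were called. Of these, Col1a2 had 24, 0 and 0 in CTRL and 109, 9 and 6 in Act, and was highest in replicate 1 of every group. Lymphocyte markers summed to at most 24 in any library. Dendritic cell markers (26 to 73 in CTRL, 47 to 83 in Act) held 0 called genes, osteoclast markers (140 to 214, and 212 to 222) held 1 higher and 1 lower gene, and erythroid markers were not analysed here. The part of these other cells in the results below was not tested, and in bulk RNA fewer cells of a type and less RNA per cell cannot be told apart.

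Several DNA-binding factors are known to act on respiratory chain genes, among them NRF1, ETS factors such as GABP, YY1 and the estrogen-related receptors. RefSeq promoters on GRCm38.p6, 300 bases each from 250 before to 50 after a transcription start, were found for 74 of the 91 genes. Both strands were searched for GCGCATGC (NRF1), CCGGAAGT (ETS), AAGATGGCG (YY1) and TCAAGGTCA (estrogen-related receptors), and no base belonged to matches of 2 different motifs. The NRF1 letters stood in the promoters of 12 genes (16.2%), against 5.91% of all tested genes with a promoter and 3.05% of all genes with one. The YY1 letters stood in 8 (10.8%, against 3.55% and 1.64%), those of the estrogen-related receptors in 2 (2.7%, against 0.312% and 0.466%) and those of ETS factors in 5 (6.76%, against 9.33% and 4.31%). In all, 26 of the 74 genes (35.1%) held at least 1 of the 4 motifs, against 17.8% of tested genes and 8.93% of all genes. A match describes these letters only, and binding was not measured.

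The following stretches are the 150 bases before the start, with the matched motif in capitals. They show 1 gene for each motif (Sdhb for NRF1, Uqcrh for ETS, Atp5j for YY1 and Atp5g3 for estrogen-related receptors) and Cox6b2 and Cox7a1, tissue isoforms described further on, in whose promoters none of the 4 motifs was found. The Atp5j stretch is from promoter 2 of that gene, whose start lies inside the annotated gene, and promoter 1 held none of the 4 motifs.
Sdhb (chr4:140961121-140961270, plus strand): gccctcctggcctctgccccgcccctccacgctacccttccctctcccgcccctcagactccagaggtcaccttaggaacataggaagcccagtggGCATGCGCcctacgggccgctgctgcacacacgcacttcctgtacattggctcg
Uqcrh (chr4:116075071-116075220, minus strand): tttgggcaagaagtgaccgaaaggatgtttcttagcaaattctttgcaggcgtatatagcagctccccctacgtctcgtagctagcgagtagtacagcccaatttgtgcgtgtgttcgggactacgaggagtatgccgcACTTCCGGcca
Atp5j (chr16:84834977-84835126, minus strand): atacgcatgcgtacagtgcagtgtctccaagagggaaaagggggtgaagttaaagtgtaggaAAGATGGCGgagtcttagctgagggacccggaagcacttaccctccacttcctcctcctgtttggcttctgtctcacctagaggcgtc
Atp5g3 (chr2:73911327-73911476, minus strand): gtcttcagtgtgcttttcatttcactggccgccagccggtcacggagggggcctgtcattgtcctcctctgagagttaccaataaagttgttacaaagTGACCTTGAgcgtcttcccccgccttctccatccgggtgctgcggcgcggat
Cox6b2 (chr7:4753095-4753244, minus strand): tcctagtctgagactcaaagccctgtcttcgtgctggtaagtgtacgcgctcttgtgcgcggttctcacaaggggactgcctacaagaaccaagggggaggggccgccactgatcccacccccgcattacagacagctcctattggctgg
Cox7a1 (chr7:30184021-30184170, plus strand): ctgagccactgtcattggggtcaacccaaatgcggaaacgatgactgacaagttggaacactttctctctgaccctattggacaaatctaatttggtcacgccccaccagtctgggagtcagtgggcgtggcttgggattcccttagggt
Averaged over the 12 libraries, the 26 genes with a motif had from 0.0133 to 0.355 normalized counts per exonic base (median 0.126), and the 48 genes with a promoter but no motif had from 0.0139 to 0.346 (median 0.127).

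The chain was expressed in every library. Members together took between 0.354% and 0.404% of all normalized counts, and their values per exonic base ranged from 0.0133 to 0.355 (median 0.125) among the 90 members that passed the filter of a mean of at least 5. This median lay at the 75.1 percentile of the tested genes, whose own median was 0.0619. The member that did not pass was Cox4i2, the lung- and hypoxia-associated isoform of subunit 4, with 0, 1 and 3 normalized counts in CTRL, 0, 0 and 2 in Act, 4, 1 and 2 in Act+FST, and 1, 0 and 3 in FST.

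**Figure D1:**
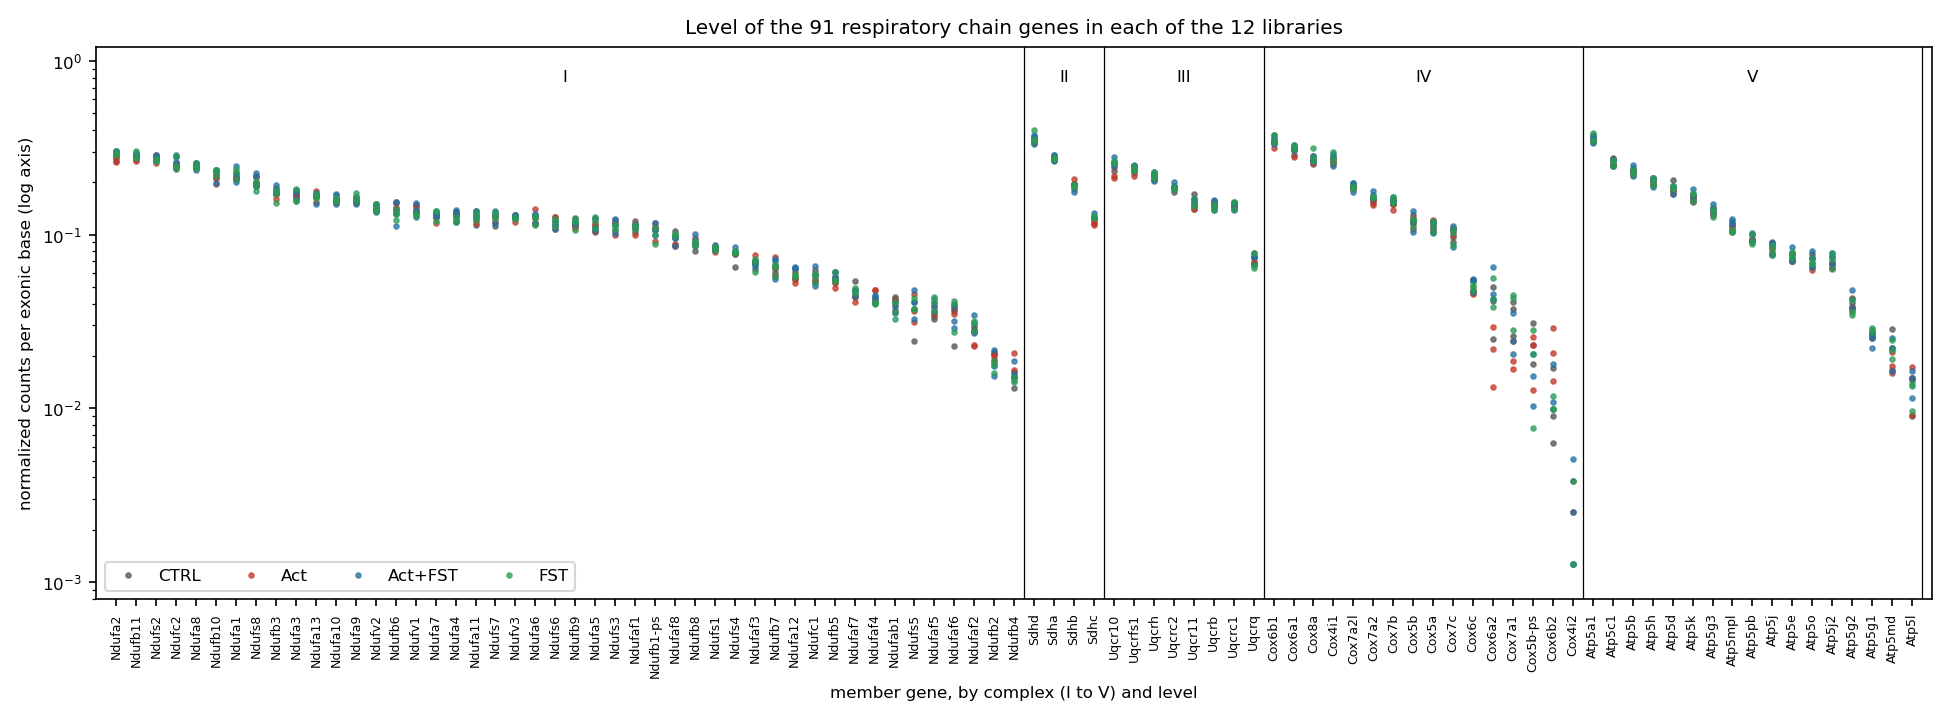
Normalized counts per exonic base on a log axis for each of the 91 genes, ordered by complex and level, with 1 point per library coloured by group (values of 0 for Cox4i2 cannot be drawn on this axis). The points of the 4 groups lie on top of each other for most genes, and the tissue isoforms Cox6a2, Cox7a1, Cox6b2 and Cox4i2 stand at the low end of complex IV.

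By value per exonic base, the most abundant members of complex II were Sdhd, a membrane anchor of the complex (0.355), and Sdha, the flavoprotein that oxidizes succinate (0.275). In normalized counts, Sdha had 1171, 1109 and 1144 in CTRL, 1129, 1102 and 1112 in Act, 1095, 1189 and 1190 in Act+FST, and 1123, 1147 and 1127 in FST. For Sdhd these were 433, 432 and 447 in CTRL, 420, 437 and 414 in Act, 408, 458 and 450 in Act+FST, and 423, 489 and 435 in FST. For both genes the ranges of all 4 groups overlapped.

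In complex V, Atp5a1, the alpha subunit of the catalytic F1 part, had the highest value per exonic base (0.355), followed by Atp5c1, its central shaft (0.260). The CTRL libraries had 1179, 1101 and 1126 normalized counts of Atp5a1, all above the 1066, 1094 and 1084 of Act, while Act+FST (1054, 1150 and 1137) and FST (1078, 1210 and 1093) spanned both. Atp5c1 had 523, 473 and 520 in CTRL, 488, 479 and 482 in Act, 471, 509 and 511 in Act+FST, and 474, 515 and 499 in FST. The 3 genes for the same c subunit of the membrane ring had 0.137 per exonic base for Atp5g3, 0.0394 for Atp5g2 and 0.0265 for Atp5g1. The order of Atp5g2 and Atp5g1 depends on the length used, which counts every annotated exonic base (1675 and 4912). In mean normalized counts, Atp5g1 (130.4) was above Atp5g2 (66.08). Of the 75-base stretches of Atp5g2, 35.8% also occur in other genes, and its count is uncertain for that reason. Atp5g3 ranged from 293 to 309 normalized counts in CTRL and from 281 to 311 in Act, Atp5g2 from 63 to 68 and from 61 to 72, and Atp5g1 from 125 to 134 and from 127 to 135, so that all 3 overlapped.

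In complex I, the highest values per exonic base were those of the accessory subunits Ndufa2 (0.287) and Ndufb11 (0.282). Ndufa2 had between 152 and 166 normalized counts in CTRL, 149 and 161 in Act, 170 and 174 in Act+FST, and 165 and 174 in FST. Ndufb11 had between 252 and 263 in CTRL, 239 and 255 in Act, 255 and 268 in Act+FST, and 250 and 275 in FST. In complex III these were Uqcr10, a small accessory subunit (0.250), and Uqcrfs1, the Rieske iron-sulfur protein (0.238), which had between 317 and 334 normalized counts in CTRL, 296 and 336 in Act, 322 and 344 in Act+FST, and 315 and 336 in FST. Complex IV was led by Cox6b1 (0.346) and Cox6a1 (0.310), the ubiquitous isoforms of subunits 6B and 6A. Neighbours in these orders were separated by less than their spread in places, as for Ndufa2 and Ndufb11.

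No member passed the test between Act and CTRL. By limma, 0 of the 90 tested members were higher and 0 were lower in Act at an adjusted p of at most 0.05, while 10.3% of all 14318 tested genes were higher and 9.97% were lower (20.2% in either direction, and 5.66% with a fold change of at least 2 as well). Among tested genes whose value per exonic base lay within the middle 50% of members, 20.2% were called. At an unadjusted p of at most 0.05, 4 members (4.44%) stood out, namely Sdhc, Cox6a2, Cox7a1 (lower) and Cox6b2 (higher), against 32.2% of all tested genes. With the replicate number as a block, Cox6b2 was higher and Cox6a2 was lower, and 31.5% of all genes were called.

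Members' log2 fold changes in Act versus CTRL had a median of -0.0316 and a median size of 0.0561, where all tested genes had a median of 0.0036 and a median size of 0.136. The change was below 0 for 61 members and above 0 for 29. For 81 of the 90 members (90%) the 95% interval lay within 0.5 on the log2 scale of no change, which was so for 59.9% of all tested genes. The bound of 0.5 was chosen after the values were seen. The other 9 were Ndufb4, Ndufs5, Ndufaf6, Cox6a2, Cox6b2, Cox7a1, Cox5b-ps, Atp5l and Atp5md, whose intervals were too wide or too far from 0. Of the 83 members with a mean of at least 50, 81 (97.6%) lay within the bound, against 79.6% of tested genes at that level.

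**Figure D2:**
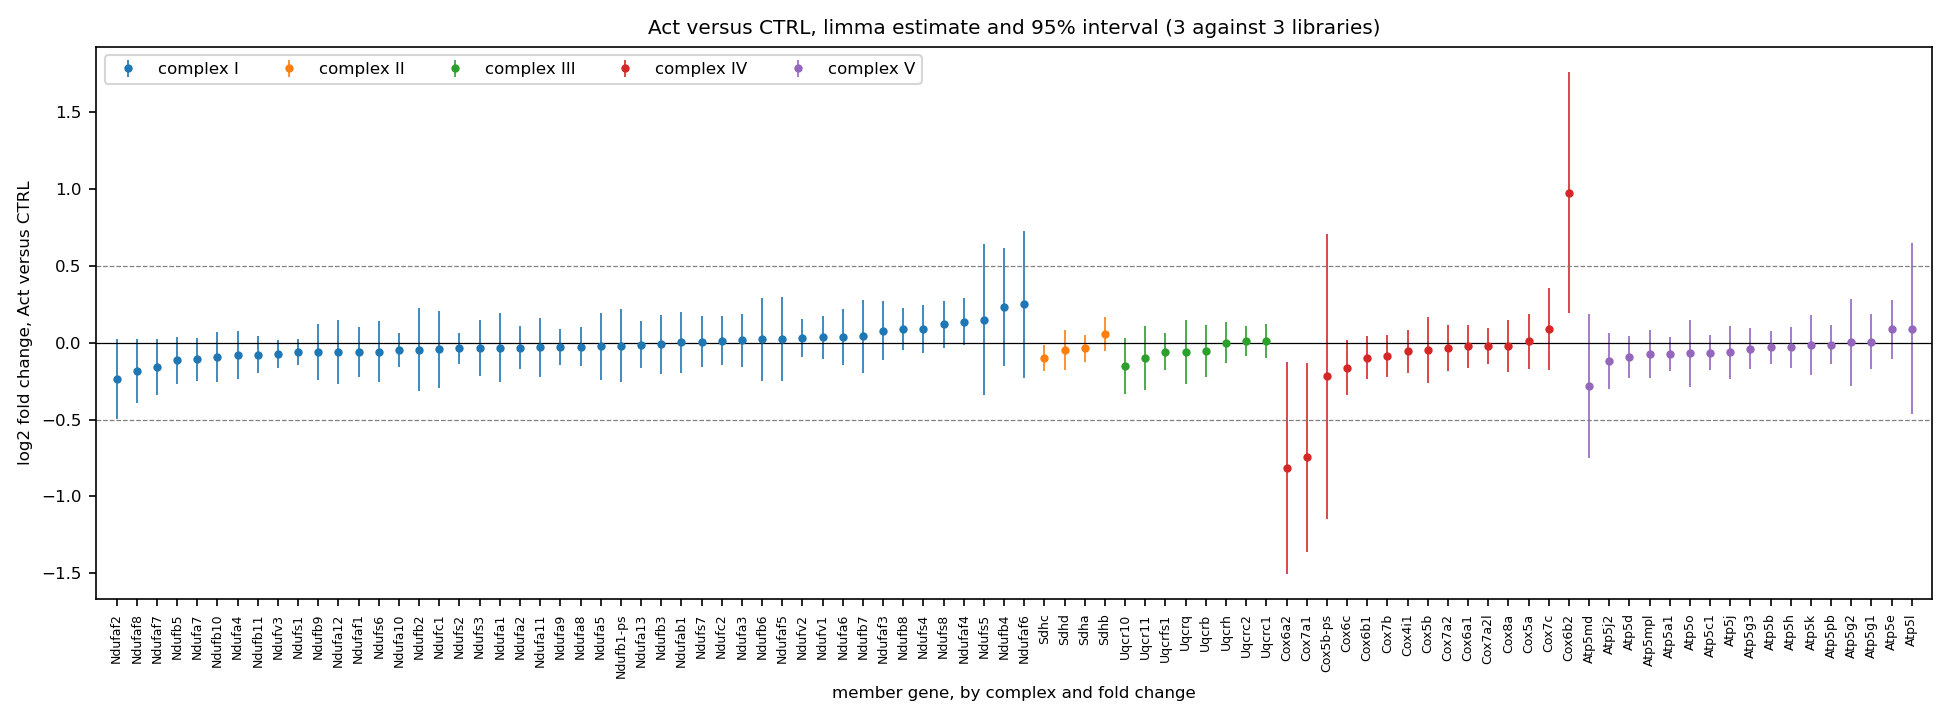
The log2 fold change of Act versus CTRL with its 95% interval from limma for each of the 90 tested genes, coloured by complex, with dashed lines at 0.5 above and below 0. Estimates lie close to 0 in all 5 complexes, and the 3 widest departures are the tissue isoforms Cox6a2, Cox7a1 and Cox6b2.

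Each complex had a median close to 0. The median log2 fold change of Act versus CTRL was -0.0252 in complex I, -0.0401 in complex II, -0.0557 in complex III, -0.0464 in complex IV and -0.038 in complex V. By role, it was 0.0090 for the 7 core subunits of complex I, which carry the flavin and iron-sulfur centres or line the way to ubiquinone, -0.0252 for its 30 accessory subunits and -0.0154 for its 8 assembly factors. The 11 ubiquitous subunits of complex IV had a median of -0.0322, the 5 subunits of the F1 part of ATP synthase one of -0.0636, and the 4 subunits of its peripheral stalk one of -0.0439. Over the members of a role, the estimates ran from -0.11 to 0.23 for the accessory subunits of complex I, from -0.23 to 0.25 for its assembly factors, and from -0.15 to 0.01 for complex III. They ran from -0.16 to 0.09 for the ubiquitous subunits of complex IV, from -0.09 to 0.09 for the F1 part, from -0.07 to -0.01 for the peripheral stalk, from -0.04 to 0.01 for the c ring, and from -0.28 to 0.09 for the other membrane subunits of ATP synthase.

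Among the core subunits of complex I, the values ran from -0.06 ± 0.04 (SE) for Ndufs1, the largest of them, to 0.12 ± 0.07 (SE) for Ndufs8 (3 libraries per group, limma adjusted p = 0.312 and 0.269). Normalized counts of Ndufs1 were 699, 679 and 676 in CTRL, all above the 656, 673 and 641 of Act. Among the assembly factors, Ndufaf2 had the lowest estimate (-0.23 ± 0.12, adjusted p = 0.206), with 85, 89 and 83 in CTRL and 82, 69 and 68 in Act. Of the exonic bases of Ndufaf2, 65.7% also lie in a gene on the opposite strand, and 63.2% of its 75-base stretches also occur in other genes, so its count is uncertain.

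Groups of 3 libraries that did not overlap were all in 1 direction. In Act versus CTRL, 0 members had every Act library above every CTRL library and 9 had every one below (Ndufa7, Ndufa10, Ndufv3, Ndufaf2, Ndufaf8, Ndufs1, Sdhc, Cox7a1 and Atp5a1), against 18.0% and 17.6% of all tested genes. In Act versus Act+FST, 0 members were above and 12 were below (Ndufa2, Ndufa7, Ndufa12, Ndufb9, Ndufc2, Sdhc, Uqcr10, Uqcr11, Cox6a2, Cox7a2, Cox7b and Atp5mpl), against 17.4% and 16.7%. The comparisons share the Act libraries, and Ndufa7 and Sdhc were in both lists.

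Sdhc codes for the large cytochrome b subunit, a membrane anchor of complex II. It had 405, 406 and 394 normalized counts in CTRL, 378, 370 and 378 in Act, 408, 408 and 430 in Act+FST, and 402, 415 and 412 in FST. All 3 Act libraries were below the other 9. The log2 fold change was -0.10 ± 0.04 (SE) against CTRL (limma adjusted p = 0.110, or 0.086 under the block) and -0.15 ± 0.04 (SE) against Act+FST (adjusted p = 0.0202). The other anchor, Sdhd, and the catalytic subunits Sdha and Sdhb had estimates between -0.05 and 0.06 against CTRL.

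In Act versus Act+FST, where FST288 was added to the same dose of activin A, Sdhc and Cox6a2 were lower and 0 of the 90 members were higher, where 10.2% of all tested genes were lower and 11.1% were higher (21.3% in either direction, 5.83% with a fold change of at least 2 as well, and 32.6% with the replicate block). Here 72 members had an estimate below 0 and 18 above, with a median of -0.0487. Neither gene passed when replicate 3 of Act+FST was left out. Sdhc alone was lost without replicate 2 of Act (adjusted p = 0.0733) and Cox6a2 without replicate 1 of Act (0.0611), and the count of lower members rose to 4 without replicate 1 of Act+FST. Uqcr10 and Ndufaf2 came next, with log2 fold changes of -0.23 ± 0.08 (adjusted p = 0.077) and -0.33 ± 0.12 (0.073).

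Uqcr10 had 151, 151 and 135 normalized counts in CTRL, 143, 123 and 127 in Act, 145, 164 and 151 in Act+FST, and 151, 155 and 153 in FST. The Act libraries were below those of Act+FST and FST and overlapped CTRL. With values corrected for reads that share a start position, as the removal of duplicates would lose them, Uqcr10 passed the threshold (-0.26, adjusted p = 0.0477). Under the same correction, the count of members called in Act versus CTRL was 0 and their median log2 fold change was -0.0335.

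The wider estimates belonged to tissue isoforms of complex IV, which are low in these cells. Cox6a2, the heart and skeletal muscle isoform of subunit 6A (chromosome 7, 128205435 to 128206387, minus strand, mm10), had 17, 34 and 28 normalized counts in CTRL, 9, 20 and 15 in Act, 31, 29 and 44 in Act+FST, and 26, 29 and 38 in FST. Act was below Act+FST and FST in every library and overlapped CTRL, and within each replicate number it was below CTRL in 3 of 3 pairs. The log2 fold change was -0.81 ± 0.32 (SE) against CTRL (limma adjusted p = 0.093, or 0.0195 under the block) and -1.23 ± 0.32 (SE) against Act+FST (adjusted p = 0.0150, and 0.00135 with the block). Of its exonic bases 10.3% overlap Itgad on the opposite strand, and Itgad had log2 fold changes of 0.17 (adjusted p = 0.842) and 0.83 (0.213) in these comparisons. Its ubiquitous counterpart Cox6a1 had between 202 and 223 normalized counts in CTRL, 195 and 220 in Act, 214 and 230 in Act+FST, and 218 and 231 in FST.

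Cox6b2, the testis isoform of subunit 6B, had 10, 19 and 7 normalized counts in CTRL, 16, 32 and 23 in Act, 11, 12 and 20 in Act+FST, and 11, 13 and 11 in FST. Act overlapped CTRL and Act+FST and was above all FST libraries, and it was above CTRL in 3 of 3 pairs. The log2 fold change was 0.98 ± 0.36 (SE) against CTRL (limma adjusted p = 0.077, or 0.0332 under the replicate block, and 0.0221 without replicate 2 of CTRL) and 0.68 ± 0.36 (SE) against Act+FST (adjusted p = 0.218). Cox6b1, the ubiquitous isoform, had 265, 237 and 249 in CTRL and 240, 222 and 240 in Act.

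Cox7a1, the isoform of subunit 7A of heart and skeletal muscle, had 22, 20 and 14 normalized counts in CTRL, 10, 9 and 13 in Act, 11, 13 and 19 in Act+FST, and 23, 24 and 15 in FST. Act was below CTRL and FST in every library and overlapped Act+FST. The log2 fold change was -0.74 ± 0.28 (SE) against CTRL (limma adjusted p = 0.086, or 0.071 under the block) and -0.38 ± 0.28 (SE) against Act+FST (adjusted p = 0.402). Its counterparts Cox7a2 and Cox7a2l, the latter known for its place in supercomplexes, had estimates of -0.03 and -0.02 against CTRL. Cox4i1, the common isoform of subunit 4, had one of -0.06 (95% interval -0.20 to 0.09).

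Cox4i1 had 429, 423 and 411 normalized counts in CTRL, 400, 395 and 420 in Act, 382, 451 and 437 in Act+FST, and 403, 461 and 425 in FST. Cox7a2 had 144, 149 and 156 in CTRL, 148, 151 and 140 in Act, 154, 159 and 169 in Act+FST, and 156 in each FST library, so that Act was below Act+FST and FST and overlapped CTRL. Cox7a2l ranged from 274 to 285 in CTRL, from 270 to 280 in Act, from 260 to 292 in Act+FST and from 272 to 282 in FST. Subunits without a tissue counterpart in the table were similar. Cox7b ranged from 182 to 192 in CTRL, from 168 to 182 in Act, from 188 to 199 in Act+FST and from 184 to 199 in FST, and Cox8a from 158 to 175, 160 to 168, 165 to 175 and 164 to 196 in the same order. Ndufa4 ranged from 178 to 187 in CTRL, from 165 to 181 in Act, from 164 to 190 in Act+FST and from 162 to 175 in FST (-0.08 ± 0.07 for Act versus CTRL, limma adjusted p = 0.518).

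**Figure D3:**
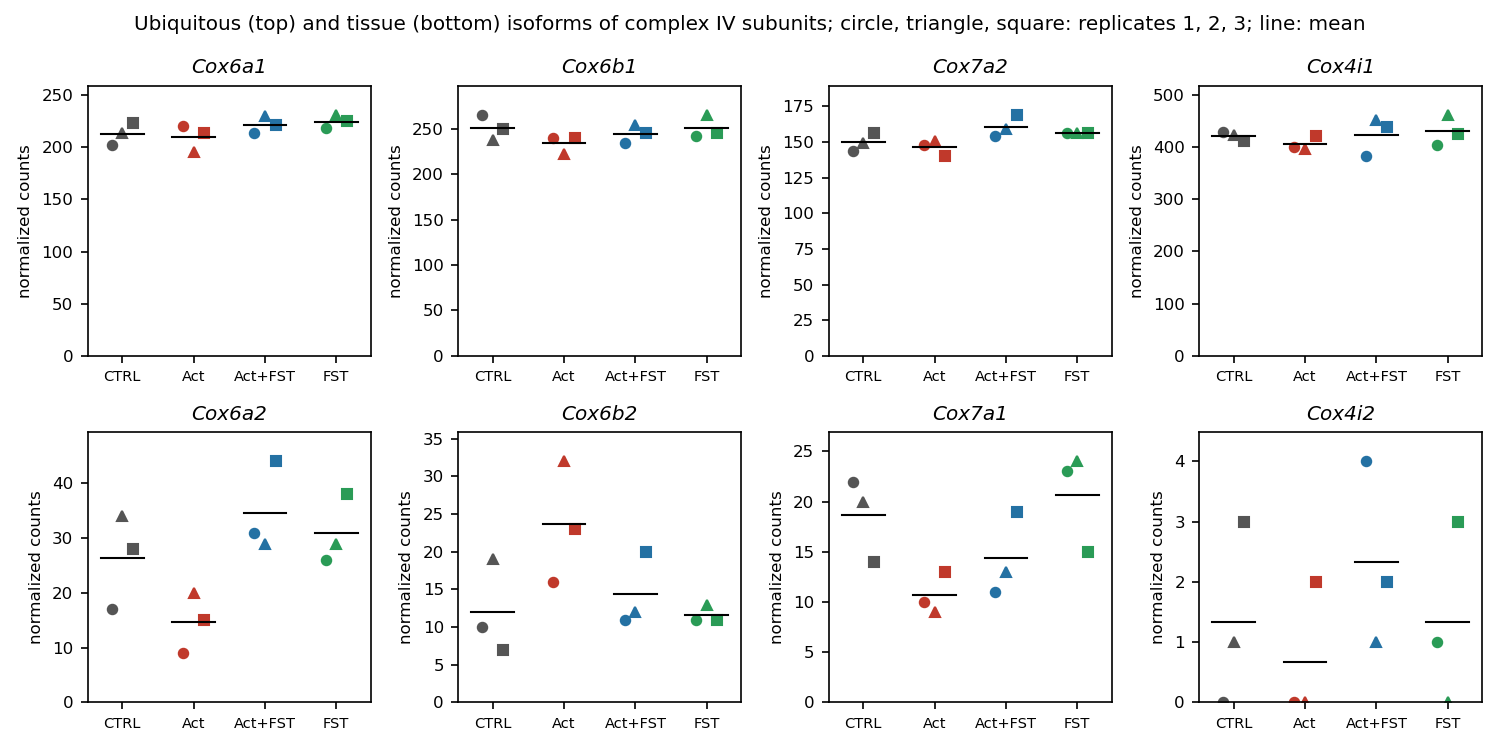
Normalized counts of 4 ubiquitous subunit isoforms of complex IV (top row) and their tissue counterparts (bottom row) in the 4 groups, with a separate vertical axis for each gene, replicate numbers as symbols and the group mean as a line. Act overlaps CTRL for the ubiquitous isoforms, lies below Act+FST and FST for Cox7a2 (at most 151) and below FST for Cox6b1 (at most 240), while Cox6a2 and Cox7a1 are lowest and Cox6b2 is highest on average in Act, at normalized counts of 7 to 44.

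The other members with intervals beyond the bound of 0.5 had low counts or replicates that lay apart. Atp5l, which codes for subunit g of ATP synthase, had 58, 94 and 96 in CTRL, 59, 96 and 112 in Act, 74, 105 and 96 in Act+FST, and 62, 86 and 89 in FST, and replicate 1 was the lowest of its group each time. Cox5b-ps had between 3 and 12 normalized counts in the 12 libraries, and 43.0% of its 75-base stretches also occur in other genes. Cox5b itself had an estimate of -0.05 (adjusted p = 0.803).

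The members' sums were lowest in replicate 1 of each of the 4 groups, and replicates 2 and 3 had no common order. Summed over all 91 genes, CTRL had 21690, 22065 and 22063 normalized counts, Act had 21100, 21412 and 21904, Act+FST had 20859, 22785 and 22930, and FST had 21153, 22522 and 21900. The sums of Act over all 91 genes overlapped those of every other group. By complex, every Act sum was below every CTRL sum in complex II (2343 to 2374 against 2386 to 2422). The same held in complex III (2117 to 2162 against 2169 to 2178) and complex IV (2337 to 2428 against 2430 to 2489). In complex I the 2 groups overlapped, and in complex V they met at 5277. These sums were not tested. Within replicate numbers, Act had a lower sum than CTRL in 3 of 3 pairs, and the same was found for complexes II, III, IV and V, while complex I was lower in 2 pairs and equal in 1. Against Act+FST, the sum over all members was lower in Act in 2 of 3 pairs. Of the 90 members, 15 were above their own mean over the 12 libraries in replicate 1 of Act+FST, and 72 and 85 were above it in replicates 2 and 3. In complex V, replicate 1 of Act+FST had a sum of 4964 and the other two of 5534 and 5536. What the replicate numbers stand for is not given in the sources used here.

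**Figure D4:**
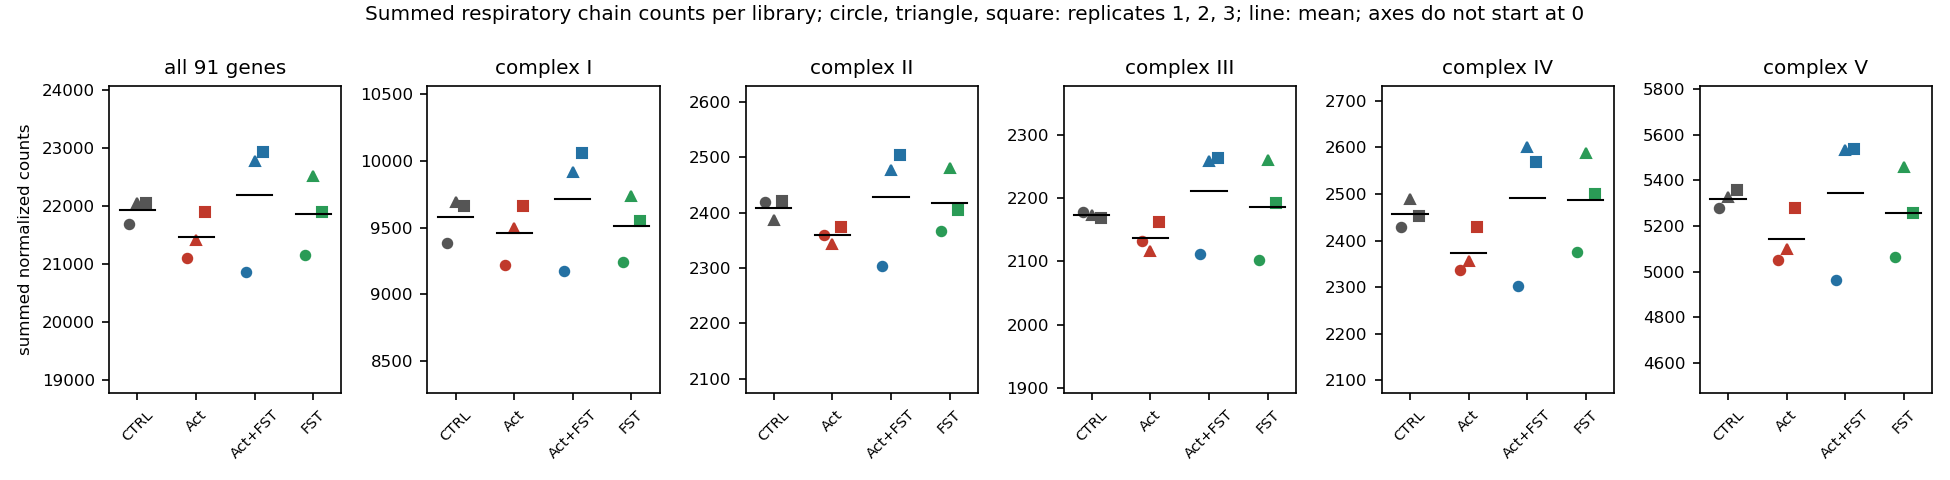
Summed normalized counts of all 91 genes and of each complex in the 12 libraries, with replicates as symbols and the group mean as a line, on axes that do not start at 0. In the sum over all genes Act overlaps CTRL and is below it in 3 of 3 pairs of the same replicate number, and replicate 1 of Act+FST has the lowest sum of all 12 libraries (20859).

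The groups with FST288 were compared with CTRL in the same way. In Act+FST versus CTRL and in FST versus CTRL, 0 members were called by limma, and so were 0% and 0% of all tested genes. At an unadjusted p of at most 0.05, 0 members stood out in Act+FST versus CTRL, as did 4.57% of all tested genes. With the replicate block, 0.559% of all genes and 0 members were called in Act+FST versus CTRL. The median log2 fold change of members was 0.0169 in Act+FST versus CTRL and -0.0069 in FST versus CTRL. The effect of activin A without FST288 (Act against CTRL) minus that with it (Act+FST against FST) passed the threshold for 0 members and for 6.74% of all tested genes.

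Genes that work beside the chain, and the cytosolic ribosomal proteins, were read from lists chosen with earlier results of these data known. Over these lists, 277 genes were tested in Act versus CTRL, and 9 were higher and 12 lower (7.58%, against 20.2% of all tested genes). Cytochrome c (Cycs) and cytochrome c1 (Cyc1), the heme proteins on either side of the step out of complex III, had estimates of 0.19 (adjusted p = 0.46) and 0.11 (0.206). Of 19 genes of mitochondrial protein import, 0 were called, as were 0 of 80 cytosolic ribosomal proteins, and of 77 mitochondrial ribosomal proteins 2 were higher and 2 lower. Of the higher ones, Mrpl52 had 142, 139 and 142 normalized counts in Act against 86, 96 and 88 in CTRL (log2 fold change 0.64 ± 0.09, adjusted p = 0.00039), and of the lower ones Mrpl48 had 190, 197 and 193 against 207, 244 and 239 (-0.25 ± 0.07, adjusted p = 0.0194).

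**Figure D5:**
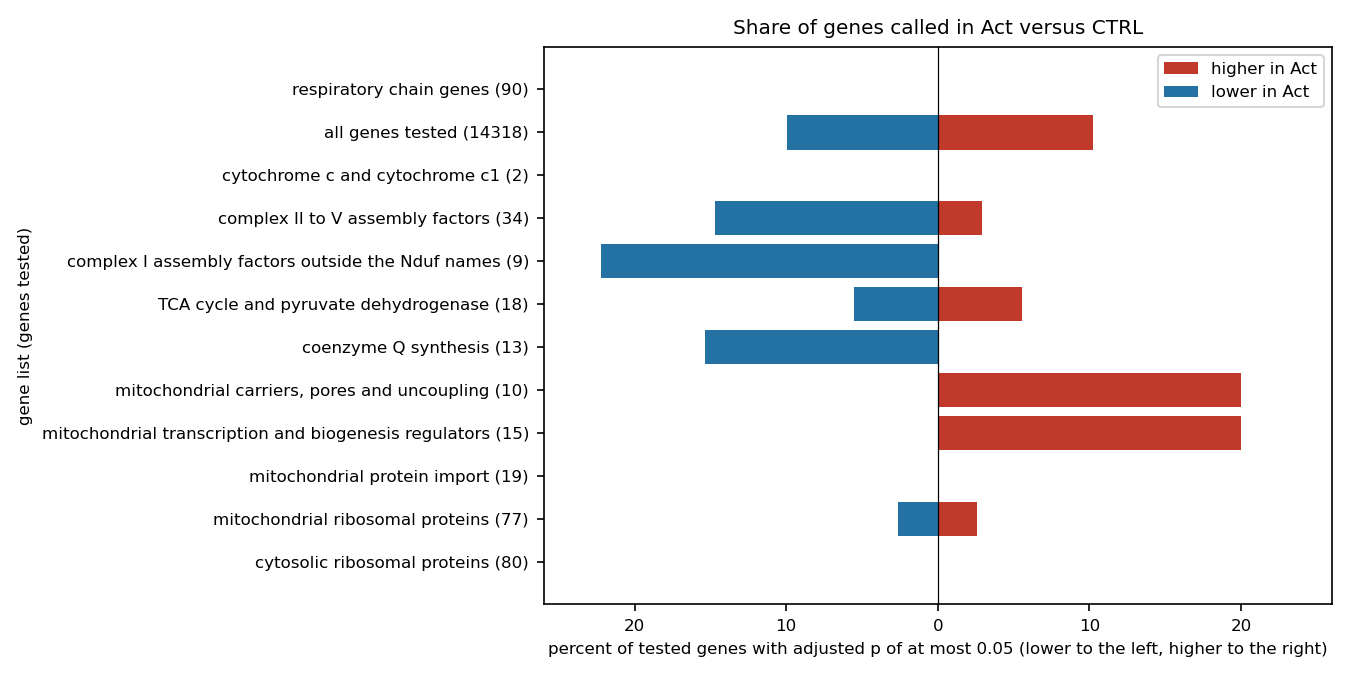
The percent of tested genes called higher (right) or lower (left) in Act versus CTRL for the respiratory chain genes, all tested genes and 10 related lists, with the number tested in parentheses. No bar is drawn for the 90 respiratory chain genes, and the bars of all tested genes reach 10.3% to the right and 9.97% to the left.

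Assembly factors outside the naming rule had calls at a share near the 20.2% of all tested genes. Of 9 further complex I assembly factors 2 were lower, Tmem126b, a part of the MCIA assembly complex, and Dmac1. Tmem126b had 464, 504 and 523 normalized counts in CTRL, 409, 404 and 395 in Act, 475, 509 and 489 in Act+FST, and 463, 498 and 498 in FST, with Act below all other libraries (-0.30 ± 0.05 against CTRL, adjusted p = 0.00136). Dmac1 had 187, 185 and 166 in Act against 206, 214 and 207 in CTRL (-0.22 ± 0.06, adjusted p = 0.0227). Of 34 assembly factors of complexes II to V, 1 was higher and 5 were lower. The higher one was Coa7, with 251, 206 and 226 in Act against 177, 174 and 203 in CTRL (0.30 ± 0.09, adjusted p = 0.0358). Cox14, which acts on the early assembly of complex IV, had 288, 297 and 312 in CTRL and 250, 246 and 255 in Act (-0.25 ± 0.06, adjusted p = 0.00922).

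Single genes that supply the chain passed the test, as did 20.2% of all tested genes in either direction. Of 18 genes of the TCA cycle and pyruvate dehydrogenase, Ogdh, the E1 part of the 2-oxoglutarate dehydrogenase complex, was higher, with 1385, 1348 and 1300 in Act against 1253, 1172 and 1196 in CTRL (0.16 ± 0.04, adjusted p = 0.0123), and Fh1, fumarate hydratase, which acts on the product of complex II, was lower. Fh1 had 550, 527 and 544 normalized counts in CTRL, 429, 408 and 414 in Act, 524, 586 and 508 in Act+FST, and 539, 578 and 513 in FST (-0.37 ± 0.06 against CTRL, adjusted p = 0.000673). Of 13 genes of coenzyme Q synthesis, Coq2 and Coq5 were lower and 0 were higher. Coq2 had 126, 157 and 150 in Act against 163, 199 and 185 in CTRL (-0.34 ± 0.10, adjusted p = 0.0377), and Coq5 had 273, 269 and 266 against 306, 311 and 300 (-0.18 ± 0.05, adjusted p = 0.02). Of 10 carriers, pores and uncoupling proteins, Ucp2 and Ucp3 were higher, with 1510, 1491 and 1470 in CTRL and 1765, 1767 and 1754 in Act for Ucp2 (0.24 ± 0.05, adjusted p = 0.00549). Ucp3 had 5, 1 and 1 in CTRL, 20, 18 and 18 in Act, 5, 3 and 0 in Act+FST, and 5, 6 and 3 in FST (2.77 ± 0.61 on the log2(normalized count + 1) scale, adjusted p = 0.00665), at counts near the filter. It passed the filter, a mean of at least 5, only through the Act libraries where it was high, and its call is limited by that.

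Of 15 tested regulators of mitochondrial transcription and biogenesis, 3 were higher and 0 were lower, against 10.3% and 9.97% of all tested genes. Pprc1, a relative of the coactivator PGC-1α, had 482, 477 and 466 normalized counts in CTRL, 651, 666 and 619 in Act, 497, 491 and 438 in Act+FST, and 522, 480 and 457 in FST (0.44 ± 0.06 against CTRL, adjusted p = 0.000237). Ppargc1b, which codes for PGC-1β, had 34, 41 and 33 in CTRL and 69, 45 and 56 in Act (0.63 ± 0.20, adjusted p = 0.0456). Polg, the mitochondrial DNA polymerase, named here after its values were seen, was also higher (0.32 ± 0.04, adjusted p = 0.000287). Nrf1, Gabpa and Esrra, tied to 3 of the 4 motifs, had estimates of 0.09 (adjusted p = 0.183), 0.04 (0.676) and 0.05 (0.694) and did not pass. Nor did Tfam, a factor in the transcription and packing of mitochondrial DNA (0.12, adjusted p = 0.171). Yy1, also named after its values were seen, had an estimate of 0.12 against CTRL (adjusted p = 0.0681, or 0.0189 under the block) and was higher in Act than in Act+FST (0.15, adjusted p = 0.0227). Ppargc1a was under the filter. Gabpa shares 12.7% of the exonic bases of Atp5j on the opposite strand, and Atp5j had an estimate of -0.06 (adjusted p = 0.667).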

How the data were processed

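RNA was measured in 12 libraries of BMDMs, 3 per group, and groups were taken from the sample labels. The submitters' processing notes name Trimmomatic 0.39, STAR 2.7.9a, featureCounts 2.0.2, DESeq2 1.30.0 and the mm10 build, and multi-mapped and multi-gene reads were excluded. The values deposited by the authors are a normalized signal, in which each library's gene counts were divided by a constant and rounded, so whole reads could not be recovered and the test for counts was replaced by limma. The strand setting and any removal of duplicates are not given in the sources used here. Estimated scaling factors lay between 0.9165 and 1.1. limma 3.58.1 (R 4.3.3, empirical Bayes with a trend) was fitted to log2(normalized count + 1) for the 14318 genes whose mean reached 5, with 4 group means, and p-values were adjusted over all of these by Benjamini-Hochberg. The pipeline was tested on simulated data. Tests were two-sided.

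Members and lists were chosen with earlier results of these data known. All members may be named. Values per library are given for the 2 members per complex with the highest count per exonic base, isoform pairs and called members, and from each related list the 2 called genes with the largest change. Values per exonic base were divided by all annotated exonic bases of a gene, so orders by them depend on that length. The 91 members matched GENCODE M21 with the same coordinates. Of these, 48 shared no 75-base stretch with other genes, 18 shared over 10%, and 13 had over 10% of exonic bases in another gene. Replicate numbers come from the labels. Deviations from group means correlated by 0.157 to 0.481 in all 18 pairs with the same number (mean 0.312). The mean of -0.155 for 36 other pairs follows from the subtraction of group means and is no separate support. Over the members alone, the 18 pairs ranged from -0.42 to 0.634 (mean 0.178). The replicate number was used as a block in an alternative. The other alternatives were pseudocounts of 0.5 and 5, no filter or a mean of at least 50, quantile normalization, recomputed TMM factors, only the groups compared, no trend, a correction for shared start positions, a fold change of at least 2 and leaving out each library. Counting error is part of the replicate spread and limits genes of low counts most. Figures were drawn with matplotlib 3.10.9.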

Additional observations from a re-analysis of the deposited data

Results flagged for a closer look

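For 7 of the 277 related genes tested, all named above, and for 0 members, the effect of activin A differed with and without FST288. The same was found for 6.74% of all tested genes. The difference is the log2 fold change of Act versus CTRL minus that of Act+FST versus FST, with adjusted p-values from the same limma fit over all tested genes. It was 3.7 for Ucp3 (adjusted p = 0.0233), 0.491 for Mrpl52 (0.0432), 0.474 for Pprc1 (0.00501), 0.297 for Ucp2 (0.0305) and 0.283 for Polg (0.017). It was -0.361 for Fh1 (0.0205) and -0.315 for Tmem126b (0.0228). In the presence of FST288 the same genes had log2 fold changes of -0.936 for Ucp3, 0.153 for Mrpl52, -0.0331 for Pprc1, -0.0552 for Ucp2, 0.0357 for Polg, -0.0116 for Fh1 and 0.014 for Tmem126b. Ucp3 was close to the filter, with 0 to 20 normalized counts in the 12 libraries, and passed it only through the Act libraries, which limits its result.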

How the results depend on the processing

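In Act versus CTRL, where 0 members were called, 2 were called under quantile normalization (Cox6b2 higher and Sdhc lower), 2 with the replicate block (Cox6b2 higher and Cox6a2 lower) and 1 without the trend, and leaving out 1 library gave 0 to 1 (Cox6a2 without replicate 1 of CTRL, Cox6b2 without replicate 2 of CTRL). In Act versus Act+FST, where 2 were called, a filter of 50, only the 2 groups compared and a fold change of at least 2 each left 1, fitting without the trend gave 4, and leaving out 1 library gave 0 to 4. The related lists, with 21 genes called, had 33 with the replicate block (13 higher, 20 lower), 1 under the 2-fold rule, and 11 to 22 with 1 library left out (11 without replicate 2 of CTRL, 13 without replicate 3 of Act). Leaving out 1 library moved the median log2 fold change of Act versus CTRL between -0.0414 and -0.0179 for all members, -0.0358 and -0.00328 for complex I, and -0.0716 and -0.0198 for complex V, and quantile normalization gave -0.0686 for complex II. The causes were not tested. No named member reversed its direction, and the counts for the other contrasts stayed at 0. The block changed no other call of a member. Low counts limited the tissue isoforms most, and their intervals allow changes larger than 2-fold.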
